A study of Danio rerio with 16 samples.

Results

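The 9 genes described here, pax3a, pax7a, pax6a, pax6b, dbx1a, olig2, olig4, nkx6.1 and irx3a, encode transcription factors that mark dorsoventral positions in the vertebrate neural tube. They were chosen by name, as 9 of the 21301 genes counted in single cells of dissected zebrafish tails, and their transcripts were summed per library and cell class. The tails came from embryos at the 10 to 12 somite stage and were cut just behind the last somite formed. There were 4 groups of 4 libraries each. In the DMH1 group BMP signalling was inhibited, in the SU5402 group FGF signalling, in the notum-1 group Wnt signalling, and the fourth group was wild type (WT). DMH1 blocks the kinase of BMP type I receptors, SU5402 blocks the kinase of FGF receptors, and the extracellular enzyme Notum takes the activity from Wnt ligands. Each library is a pool of 10 tails, or of 12 for notum-1. The labels name no vehicle control, and the doses, the times of treatment, the strain and the way notum-1 was delivered were not given in the sources used here.

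In the neural tube, Sonic hedgehog from the notochord and floor plate acts ventrally, while BMP and Wnt proteins from the roof plate and the overlying ectoderm act dorsally. The opposing signals set up domains of progenitor cells, each marked by a combination of transcription factors, many of which repress one another across a boundary. pax3a and pax7a are paired-box genes of dorsal progenitors, and in mouse and chick dbx1 marks progenitors of the intermediate tube. pax6a and pax6b are duplicate copies of Pax6, found from intermediate to ventral progenitors, and irx3a belongs to the Iroquois family, whose member Irx3 and Olig2 repress each other in chick. olig4 is an Olig-family gene of interneuron progenitors. nkx6.1 is ventral, and olig2 marks the progenitors of motor neurons and oligodendrocytes.

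The matrix held 130661 cells in 25 cell classes named by the authors, of which the posterior, anterior and dorsal neuronal classes held 27223. A UMI is a molecular tag that counts each captured transcript end once, so gene length does not enter these values. Libraries held 46922073 to 76488460 UMIs in DMH1, 12398958 to 70365340 in SU5402, 33086139 to 62492196 in notum-1 and 26415698 to 50512590 in WT. The 2 shallowest libraries, SU1 and SU2 of the SU5402 group, had medians of 2424 and 2763.5 UMIs per cell. In all, 2107 cell barcodes occurred in more than 1 library, and 852 of the neuronal cells carried such a barcode. The labels call the libraries biological replicates, and the p-values below measure the spread between these pools. In all cells, notum1a had 188.8 to 737 counts per 1e+06 UMIs (CPM) in notum-1 libraries and 2.82 to 3.82 CPM in WT libraries.

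The neuronal names of the classes were set beside marker genes. In WT, sox3, a transcription factor of neural progenitors, averaged 239 ± 28 CPM in posterior and 533 ± 52 CPM in anterior neuronal cells (SD, n = 4), with 11.5 CPM in presomitic mesoderm and 16.6 CPM in epidermis 1. In the class the authors named dorsal neuronal, sox3 was at 43.8 ± 9.6 CPM. There sox2, another progenitor factor, was at 273 ± 24 CPM, against 123 ± 8.1 in posterior and 103 ± 12 in anterior cells. Other neural genes were lower in that class, with sox19a at 163 CPM, against 681 in posterior and 692 in anterior cells. The 10 neural genes listed summed to 832 ± 43 CPM in dorsal, 1677 ± 96 in posterior and 1996 ± 107 in anterior cells. That sum was 203 CPM in epidermis 1 and 341 CPM in presomitic mesoderm. The early neuronal genes neurog1 and elavl3 were at 271 ± 12 and 91.1 ± 19 CPM in the dorsal class. The neural crest genes foxd3 and tfap2a were at 357 ± 63 CPM and 218 ± 32 CPM there as well. tfap2a was as high in epidermis 1, at 228 ± 26 CPM, where foxd3 was at 12.6 CPM. Of the other crest genes, sox9b was at 127 CPM in dorsal cells, snai1b at 26.9, crestin at 20.6 and the later sox10 at 8.76. twist1a was at 0.826 CPM there and at 15.7 CPM in presomitic mesoderm, where snai1b was at 17.9 CPM. The authors' name is kept, with the fact that its cells carry some crest as well as neural markers. Markers of mesoderm were present at a low level in all 3 classes, with all 10 genes of the list above 0 in every group. Their summed level in posterior neuronal cells was 516 to 674 CPM in DMH1, 434 to 1037 in SU5402, 141 to 316 in notum-1 and 979 to 1204 in WT. In WT the same sum was 869 to 1098 CPM in epidermis 1 and 6433 to 7834 CPM in presomitic mesoderm. A list of 6 notochord genes shares tbxta with that of mesoderm. In WT it summed to 327 ± 15 CPM in posterior, 284 ± 40 in dorsal and 110 ± 14 in anterior cells. The notochord sum was 125 ± 16 CPM in epidermis 1. noto was at 122 CPM in posterior cells and 17.1 in epidermis 1, and tbxta at 147 and 47.1. Of the others, ntd5 was at 46.0 and 48.8 CPM, col2a1a at 9.01 and 10.1, col8a1a at 2.45 and 1.65, and col9a1a at 0.

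In WT the genes fell into those highest in anterior, in posterior and in dorsal neuronal cells. The classes were made on the expression of these same cells, so differences between classes are described without a test. pax3a was highest in dorsal neuronal cells, at 157, 179, 184 and 183 CPM in the 4 libraries, and reached 120.2 to 152 CPM in anterior and 34.6 to 48.6 CPM in posterior neuronal cells. The lowest dorsal library thus lay above the highest anterior library, and the posterior libraries lay far below both. The fourth class in that order, epidermis 2, averaged 24.8 CPM. Counts in the dorsal class averaged 4.31 ± 0.65 times those in the posterior class of the same library (SD, n = 4).

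dbx1a was at 82.6, 93.6, 83.8 and 111 CPM in WT anterior neuronal cells and at 18.4, 21.9, 27.6 and 21.8 CPM in posterior ones. Anterior exceeded posterior in every library, by 3.04 to 5.09 times. The third class in order, a lateral plate mesoderm class, spread from 0 to 34.2 CPM over libraries and cannot be placed apart from the posterior neuronal class. In dorsal neuronal cells dbx1a had 13 UMIs in all 4 WT libraries together.

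The Pax6 copies and olig4 shared the same order of classes. pax6b was at 78.4, 78.4, 78.3 and 86.8 CPM in anterior and 20.2 to 30.3 CPM in posterior neuronal cells, and pax6a at 34.5, 41.5, 28.1 and 47.6 CPM in anterior and 12.9 to 22.2 CPM in posterior ones. Anterior levels were 3.43 ± 0.64 times posterior levels for pax6b and 2.28 ± 0.14 times for pax6a (SD, n = 4). In the dorsal class both copies were nearly undetected, with 14 UMIs of pax6b and 6 of pax6a over the 4 libraries. olig4 had the highest level of the 9 genes, 377, 306, 328 and 274 CPM in anterior neuronal cells, against 94.4 to 101 CPM in posterior and 11.9 to 21.4 CPM in dorsal ones. Among differentiated neuronal cells, a class of 371 WT cells, olig4 averaged 26.3 ± 14 CPM, which overlapped the spread of epidermis 2 at 44.6 ± 23 CPM.

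olig2 and nkx6.1 were the genes with their highest level in posterior neuronal cells. olig2 was at 153, 193, 175 and 217 CPM there and at 14.1, 13.2, 10.4 and 27.0 CPM in anterior neuronal cells. The posterior level was 8.06 to 16.8 times the anterior level across the 4 libraries. In epidermis 2, olig2 averaged 25.9 ± 7.5 CPM, which did not differ from the anterior neuronal level beyond the spread. nkx6.1 was at 36.6, 46.9, 43.2 and 48.2 CPM in posterior and 14.6 to 21.8 CPM in anterior neuronal cells. Second in its order came the posterior notochord, at 13.4 to 43.5 CPM, a range that overlapped both.

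irx3a departed from the other genes in WT because its highest levels lay outside the neuronal classes. It averaged 252 ± 15 CPM in anterior notochord, 83.6 ± 17 CPM in epidermis 3, 62.8 ± 8.6 CPM in epidermis 4 and 59.7 ± 16 CPM in posterior notochord (SD, n = 4). The last 3 of these overlapped. Within the neural classes it was at 31.9, 33.6, 26.3 and 36.2 CPM in anterior, 10.4 to 15.1 CPM in posterior and 4.51 to 7.96 CPM in dorsal neuronal cells.

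pax7a, the second dorsal paired-box gene, was close to absent from these data. It gave 19 UMIs in 18 of 130661 cells, of which 6 were in DMH1, 13 in SU5402, and none in notum-1 or in WT. The 0 of 34632 WT cells allows a share of up to 0.00866% of cells with a UMI, counting error only. Of the SU5402 UMIs, 9 came from 8 anterior neuronal cells of the single library SU4. Its duplicate pax7b gave 78 UMIs in 76 cells. pax7a did not pass the filter on low counts in any class and was not tested, so 8 of the 9 genes were tested in posterior and anterior neuronal cells, and only pax3a, olig4 and irx3a in dorsal ones.

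**Figure D1:**
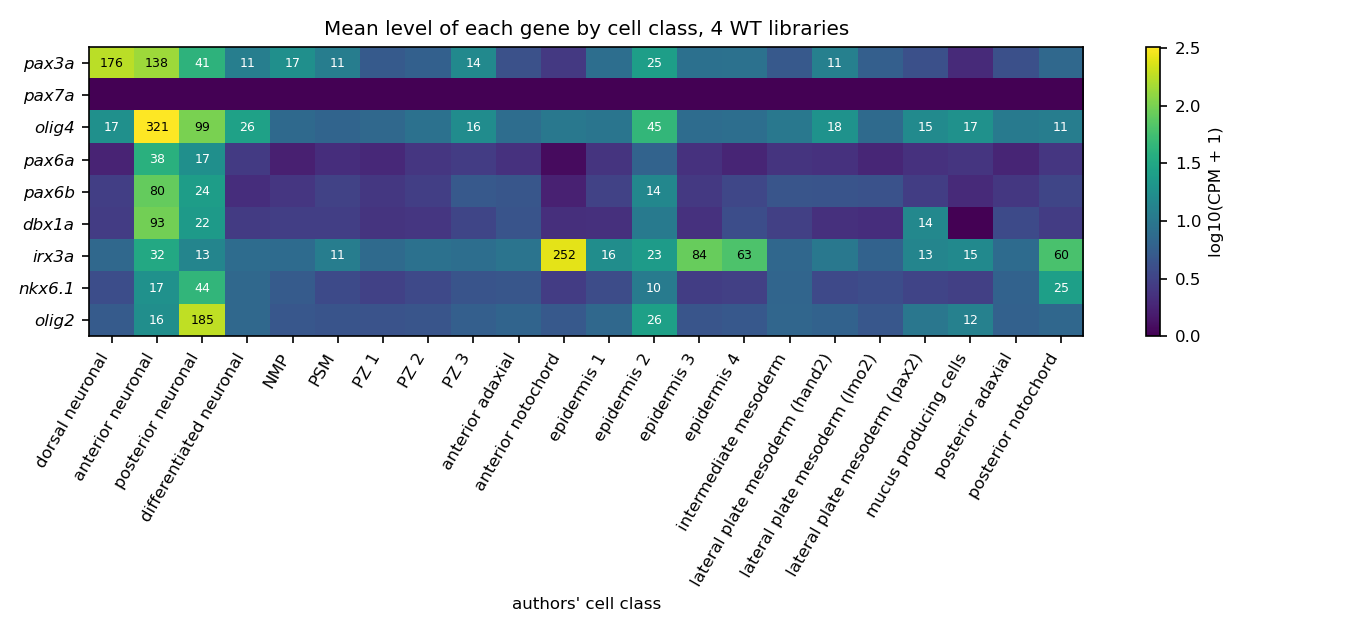
Mean level of each gene (rows) in 22 cell classes (columns) over the 4 WT libraries, with colour on a log10(CPM + 1) scale. olig4, pax6a, pax6b and dbx1a peak in anterior neuronal cells, olig2 and nkx6.1 in posterior ones, pax3a in dorsal ones and irx3a in anterior notochord, while pax7a is at 0 in WT.

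Across the 22 WT classes, the genes whose levels followed each of the 9 most closely were ranked by Pearson's r of log2 CPM, among 9447 genes. This is a description of 22 class means that share libraries. The closest to pax3a were zic2a (r = 0.93), zic5 and notum1a, the gene of the Wnt-inactivating enzyme itself. pax6a and pax6b were closest to each other (r = 0.95), and the neural progenitor gene sox3 was among the 3 closest to both. olig4 was followed by sox3 (r = 0.93), pax6a and pou3f2b, a POU-domain gene of the nervous system. For olig2 the list was si:dkeyp-110a12.4 (r = 0.92), olig3 and the Hes-family gene her3. dbx1a was led by chrd (r = 0.88), which encodes the BMP antagonist Chordin, then by pax6b and pax6a. nkx6.1 was led by si:ch211-153f2.7 (r = 0.87), ldlrad2 and si:ch73-265d7.2, and irx3a by yipf5 (r = 0.88), uap1 and kdelr2a, genes of the secretory and glycosylation machinery.

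Single WT cells were then examined for transcripts of gene pairs. Each cell was thinned at random to 2000 UMIs, and the number of cells with both genes was set beside the product of the 2 shares, as a description over libraries. In 3449 posterior neuronal cells, olig2 and nkx6.1, whose ventral domains overlap, were found together in 163 cells where the product gave 54.9, a ratio of 2.97 (2.71 to 3.90 over the 4 libraries). olig2 was seldom found with pax3a, in 5 cells against 50.1, or with dbx1a, in 4 cells against 23.1. With olig4 it shared 51 cells against 98.8, a ratio of 0.516 (0.487 to 0.579). Both ventral genes were thus under the product with olig4, which shared 16 cells with nkx6.1 where the product gave 37.9, although that ratio spread from 0.199 to 0.866. olig4 and pax3a went the other way, with 56 cells against 35.1 and a ratio above 1 in every library.

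Anterior neuronal cells, 1768 after thinning, gave a picture that was alike for some pairs and differed for others, where posterior counts were small. pax3a and olig4 were detected together in 205 cells where the product gave 141, a ratio of 1.18 to 1.62 over libraries. olig4 and nkx6.1 were together in 2 cells against 21.3. olig4 and dbx1a shared 43 cells against 67.0, a ratio of 0.418 to 0.764 over libraries. In posterior cells that pair lay above the product, with 42 cells against 16.3 (1.40 to 3.61). olig4 and pax6a shared 16 anterior cells against 39.2 (0.256 to 0.602), but 19 posterior cells against 14.3 (1.08 to 1.44). The posterior products of these pairs, 16.3 and 14.3, lay under the minimum of 20 set for reading a ratio, so no opposite pattern is read from them. pax3a was under the product with dbx1a, in 17 cells against 43.4, and with pax6a, in 11 cells against 25.6. pax6b and dbx1a shared 36 cells against 29.3, and this ratio ranged from 0.668 to 1.49, which does not separate it from the product.

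**Figure D2:**
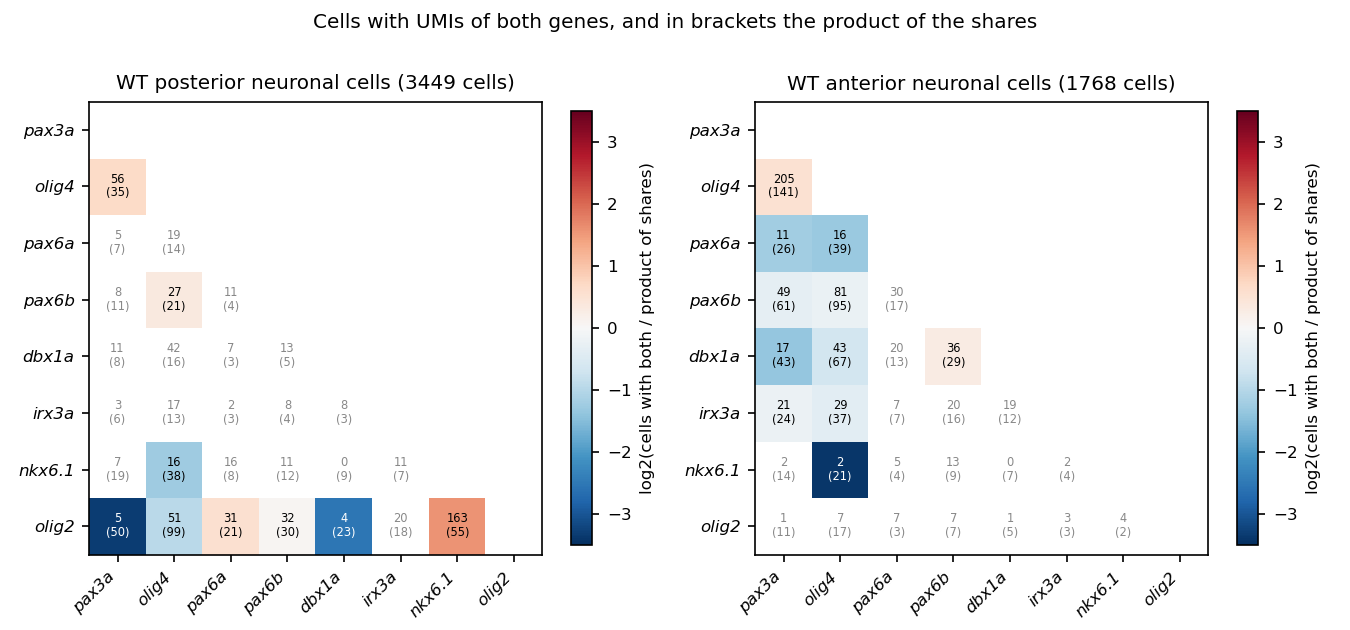
Cells with UMIs of both genes of each pair, with the product of the shares in brackets, in WT posterior (3449 cells) and anterior (1768 cells) neuronal cells thinned to 2000 UMIs. Colour gives the log2 ratio. The olig2 and nkx6.1 pair stands at 163 cells against 54.9, and the olig2 and pax3a pair at 5 cells against 50.1.

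Each treatment was compared with WT on the summed counts of a class, in 1 fit per class over all 16 libraries with edgeR's quasi-likelihood test and Benjamini-Hochberg adjustment over all genes tested. Levels are given as scaled CPM, the CPM adjusted by the TMM scaling factors of that fit. All 3 comparisons use the same 4 WT libraries, so they are set side by side and differences between treatments were not tested. In posterior neuronal cells of the 8 genes tested, 2 rose and 3 fell in DMH1, 4 rose and 3 fell in SU5402, and 1 rose and 1 fell in notum-1. Of the 10861 genes tested in that class, 43.6% passed in DMH1 (22.5% higher, 21.1% lower), 42.5% in SU5402 (22.9% higher, 19.6% lower) and 34.9% in notum-1 (18.6% higher, 16.3% lower). The median log2 fold change of the 8 genes was 0.14 for DMH1, 0.30 for SU5402 and 0.11 for notum-1, beside 0.03 for DMH1, 0.08 for SU5402 and -0.00 for notum-1 for all genes tested. With a background of that size, the share of these genes called is not a result about the list, and the sizes of single genes are what follows.

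Some other measures separated DMH1 and SU5402 from WT in the same cells, and these were known from earlier results of the data. The summed level of 4 hsp70 copies, heat shock genes, was 10.0 to 36.0 CPM in DMH1, 11.2 to 33.8 in SU5402, 347 to 1170 in notum-1 and 863 to 1553 in WT. The glycolytic gene eno1a was at 36.0 to 86.0 CPM in DMH1, 60.4 to 101 in SU5402, 0.577 to 1.36 in notum-1 and 0 to 1.02 in WT. The limits on cells that the deposited values show also differed, with a highest mitochondrial percent per library of 6.96 to 6.999 in DMH1, 6.99 to 9.99 in SU5402, 2.98 to 2.998 in notum-1 and 4.53 to 4.998 in WT. The lowest number of genes per cell was 1001 to 1016 in DMH1, 801 to 1501 in SU5402, 501 to 503 in notum-1 and 801 to 1202 in WT. The part of these differences in the results below was not tested, beyond refits under common limits on cells, which are named where they gave no call. Those refits left out SU1 in posterior and anterior cells, and SU1 and SU2 in dorsal cells, as fewer than 10 of the cells remained.

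Among the 8 genes tested, the largest change in posterior neuronal cells was that of dbx1a, the marker of intermediate progenitors. It had 1.34, 1.53, 0.691 and 2.14 scaled CPM in the DMH1 libraries and 3.18, 3.52, 1.15 and 2.02 in the SU5402 libraries. It had 12.8, 15.4, 11.3 and 13.0 scaled CPM in the notum-1 libraries and 17.95, 21.9, 27.3 and 21.1 in the WT libraries. No treated library reached the lowest WT library, and all DMH1 and SU5402 libraries lay below all notum-1 libraries. dbx1a fell 15.2-fold in DMH1 (log2 fold change -3.92, SE 0.28, adjusted p = 2.34e-08) and 9.89-fold in SU5402 (-3.31, SE 0.29, adjusted p = 1.07e-07). In notum-1 it fell 1.68-fold (-0.75, SE 0.23, adjusted p = 0.0172), a call that was lost without the WT library DJ1 (-0.63, adjusted p = 0.0685). These rest on 44 UMIs in DMH1, 39 in SU5402, 251 in notum-1 and 330 in WT. The DMH1 and SU5402 levels overlapped those of dbx1a in WT presomitic mesoderm (1.24 to 2.92 CPM) and WT epidermis 1 (0.421 to 2.13 CPM). The part of background RNA in the size of these falls was not tested.

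pax6b rose in all 3 comparisons. It had 55.1, 68.1, 67.0 and 66.7 scaled CPM in DMH1, 66.7, 62.8, 42.4 and 54.9 in SU5402, 42.7, 34.9, 43.3 and 32.9 in notum-1 and 23.4, 20.2, 30.0 and 21.1 in WT. Every treated library lay above every WT library. The rise was 2.73-fold in DMH1 (log2 1.45, SE 0.16, adjusted p = 1.53e-06), 2.38-fold in SU5402 (1.25, SE 0.16, adjusted p = 7.63e-06) and 1.63-fold for notum-1 (0.71, SE 0.16, adjusted p = 0.00292). The notum-1 value depended on the scaling between libraries, as without scaling factors it was 0.27 (adjusted p = 0.226), and under common limits on cells its adjusted p was 0.0839.

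Its duplicate pax6a passed the test in SU5402 and not in DMH1 or notum-1. It had 17.5, 18.5, 18.4 and 21.4 scaled CPM in DMH1, 41.9, 41.4, 28.7 and 32.3 in SU5402, 23.3, 14.5, 27.5 and 13.8 in notum-1 and 13.9, 17.4, 12.8 and 21.5 in WT. Only the SU5402 libraries were all above WT, a 2.14-fold rise (log2 1.10, SE 0.22, adjusted p = 0.000428) that was lost under common limits on cells (0.69, adjusted p = 0.120). In DMH1 the log2 fold change was 0.20 (SE 0.21, adjusted p = 0.472), and in notum-1 it was 0.26 (SE 0.22, adjusted p = 0.368).

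olig4, the Olig-family gene of interneuron progenitors, rose about as much in DMH1 as in SU5402. It had 167, 199, 215 and 225 scaled CPM in DMH1, 155, 168, 259 and 223 in SU5402, 129, 111, 144 and 95.2 in notum-1 and 92.1, 101, 99.96 and 97.6 in WT. The DMH1 and SU5402 libraries did not overlap those of WT, while notum-1 did. The rise was 2.06-fold in DMH1 (log2 1.05, SE 0.16, adjusted p = 4.18e-05) and 2.07-fold in SU5402 (1.05, SE 0.16, adjusted p = 3.79e-05). In notum-1 the log2 value was 0.30 (SE 0.16, adjusted p = 0.156). The summed level of 9 genes of early neurons, in CPM without scaling factors, also stood above WT in the same cells. It was 720 to 916 CPM in DMH1 and 770 to 878 in SU5402, with 433 to 496 in notum-1 and 539 to 593 in WT. Of the 6 tested, 2 passed as higher and 0 as lower in each of DMH1 and SU5402, beside 43.6% and 42.5% of all genes called. Their median log2 fold change was 0.03 for DMH1 and 0.19 for SU5402, beside 0.03 and 0.08 over all genes. Of the 9 genes, onecut1 was at 0 in SU5402, notum-1 and WT, and elavl4 in notum-1. Their part in the result was not tested.

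Of the ventral genes, olig2 fell and nkx6.1 rose in SU5402. olig2 had 132, 116, 124 and 157 scaled CPM in DMH1, 126, 128, 77.0 and 109 in SU5402, 174, 147, 211 and 177 in notum-1 and 149.8, 192, 173 and 209.9 in WT. The SU5402 libraries lay below WT, and those of DMH1 overlapped it in 1 library. The change was 1.66-fold lower in SU5402 (log2 -0.73, SE 0.16, adjusted p = 0.00124), lost under common limits on cells (-0.41, adjusted p = 0.255). It was 1.37-fold lower in DMH1 (log2 -0.45, SE 0.16, adjusted p = 0.0267), a call lost in several refits and of opposite sign under common limits on cells (0.25, adjusted p = 0.411). It was lost without each of DMH0 (adjusted p = 0.0549), DMH2 (0.0851), DMH3 (0.0735), MG2 (0.0668) and DJ2 (0.0929). In notum-1 the log2 fold change was -0.03 (SE 0.16, adjusted p = 0.901).

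nkx6.1 had 99.8, 58.7, 79.1 and 70.6 scaled CPM in SU5402, all above the 35.7, 46.9, 42.7 and 46.6 scaled CPM of WT, a 1.78-fold rise (log2 0.83, SE 0.15, adjusted p = 0.000158). In DMH1 it was at 46.1 to 53.7 scaled CPM (log2 0.24, SE 0.14, adjusted p = 0.193) and in notum-1 at 47.0 to 55.2 (0.25, SE 0.15, adjusted p = 0.185). Under common limits on cells the DMH1 value was 0.68 (adjusted p = 0.0109).

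irx3a fell in DMH1 and SU5402. It had 8.60, 7.14, 7.26 and 5.75 scaled CPM in DMH1, 6.99, 3.82, 1.81 and 4.72 in SU5402, 8.83, 12.5, 8.43 and 6.69 in notum-1 and 10.2, 15.1, 13.1 and 12.4 in WT. The DMH1 and SU5402 libraries all lay below WT. The change was 1.75-fold lower in DMH1 (log2 -0.81, SE 0.25, adjusted p = 0.0138) and 3.20-fold lower in SU5402 (-1.68, SE 0.29, adjusted p = 0.00013). The DMH1 call was lost without DMH4 (adjusted p = 0.0510), after thinning the sums to the smallest one (adjusted p = 0.114) and under common limits on cells (-0.37, adjusted p = 0.438). In notum-1 the log2 value was -0.47 (SE 0.26, adjusted p = 0.157), and without scaling factors -0.90 (adjusted p = 0.0103). The WT level of irx3a here, 10.4 to 15.1 CPM, overlapped its level in presomitic mesoderm (7.13 to 14.1 CPM) and epidermis 1 (9.17 to 21.9 CPM), and the part of background RNA in this result was not tested.

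The dorsal gene pax3a did not pass the test in posterior neuronal cells. It ranged from 36.4 to 49.8 scaled CPM in DMH1, 20.3 to 49.7 in SU5402, 23.3 to 38.9 in notum-1 and 34.6 to 48.1 in WT. The log2 fold changes were 0.09 in DMH1 (adjusted p = 0.756), -0.24 in SU5402 (adjusted p = 0.378) and -0.24 for notum-1 (adjusted p = 0.374). SU4 was the highest SU5402 library, and without it the SU5402 value was -0.50 (adjusted p = 0.0405). Without scaling factors the notum-1 value was -0.68 (adjusted p = 0.00900), and that of olig2 was -0.47 (adjusted p = 0.0348). Leaving the scaling out also moved the median of all genes in notum-1 to -0.44.

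**Figure D3:**
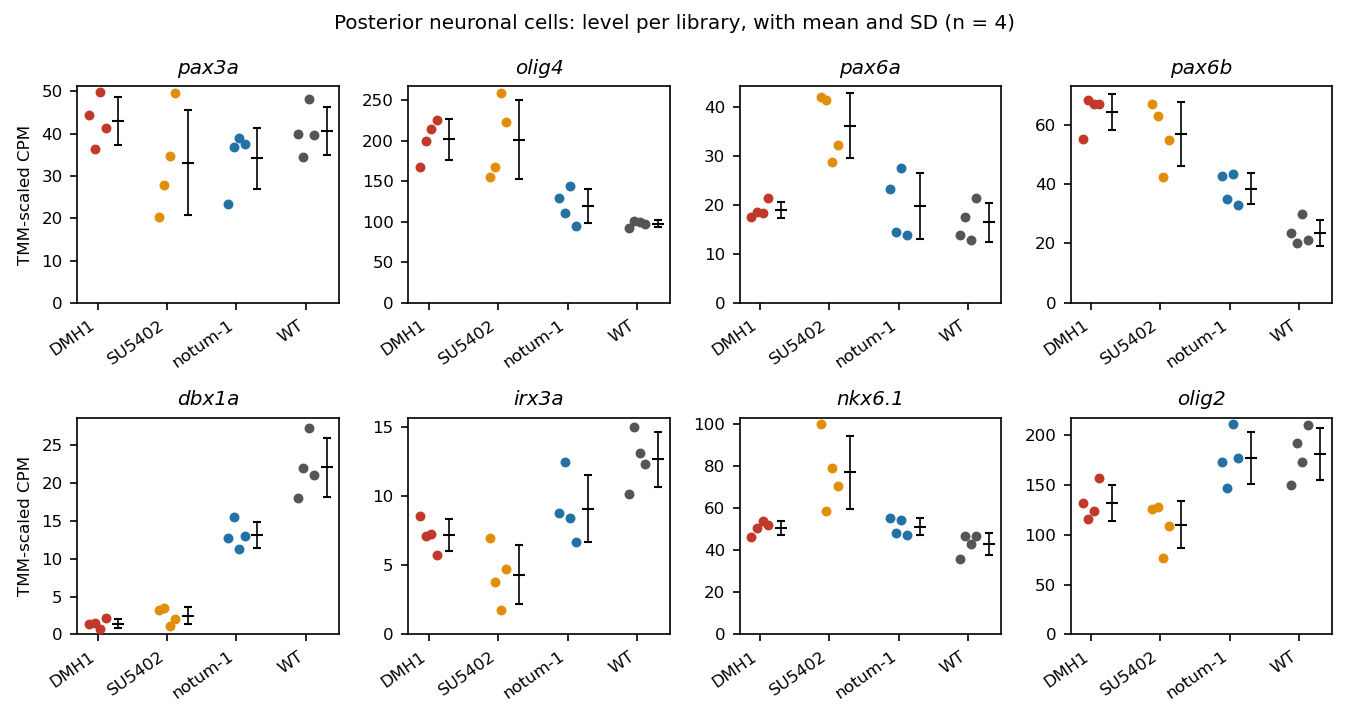
Level in posterior neuronal cells, in TMM-scaled CPM (vertical axis, from 0), of the 8 genes tested, in each library of DMH1, SU5402, notum-1 and WT, with the mean and SD (n = 4). dbx1a stays at or below 3.52 in DMH1 and SU5402, against 17.95 or more in WT, and pax6b is above the highest WT library in every treated library.

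The share of posterior neuronal cells with a UMI was compared after thinning each cell to 2000 UMIs. This kept 3416 cells in DMH1, 3120 in SU5402, 4223 in notum-1 and 3449 in WT, and left out 2 shallower cells in DMH1, 300 in SU5402, 123 in notum-1 and 29 in WT. dbx1a was found in 0.264% of cells in DMH1, 0.488% in SU5402, 1.59% in notum-1 and 3.36% in WT. The unthinned shares were 1.12% in DMH1, 0.894% in SU5402, 3.78% in notum-1 and 6.59% in WT. In epidermis 1, a class that should lack the gene, the thinned shares were 0.0364% in DMH1, 0.0698% in SU5402, 0.493% in notum-1 and 0.0859% in WT. Median UMIs per cell of the libraries were 6950 to 7916.5 in DMH1, 2358 to 8491.5 in SU5402, 3909 to 9482 in notum-1 and 3225 to 5464.5 in WT posterior cells, and at least 2258 in epidermis 1. The mean posterior share of dbx1a lay above the mean of epidermis 1 in each group. Libraries of the 2 classes overlapped in DMH1, at 0.106% to 0.437% in posterior cells and up to 0.146% in epidermis 1. They overlapped in SU5402 too, at 0.153% to 0.696% and up to 0.186%. The part of background RNA in these shares was not tested. Positive posterior cells had 1.00 UMI of dbx1a in DMH1 and SU5402 and 1.16 in WT.

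pax6b was found in 10.8% of thinned posterior cells in both DMH1 and SU5402, in 4.85% in notum-1 and in 4.51% in WT, against at most 0.576% in epidermis 1. For olig4 the shares were 23.7% in DMH1, 24.3% in SU5402, 12.3% in notum-1 and 14.1% in WT, against at most 1.61% in epidermis 1. The UMIs per positive cell averaged 1.71 in DMH1, 1.79 in SU5402 and 1.39 in WT for olig4. For pax6b they were 1.29 ± 0.066 in DMH1, 1.24 ± 0.029 in SU5402 and 1.04 ± 0.037 in WT (SD, n = 4). The share of cells with olig2 was 18.4% in DMH1, 16.8% in SU5402, 18.5% in notum-1 and 19.7% in WT, with exact p-values of 0.286 to 0.486. Its UMIs per positive cell were 1.75 ± 0.096 in DMH1, 1.66 ± 0.19 in SU5402, 1.56 ± 0.083 in notum-1 and 2.11 ± 0.065 in WT (SD, n = 4). For irx3a the thinned share of 1.03% to 2.66% was no higher in WT than the 2.76% of epidermis 1, so no difference is read from it.

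These shares were compared by a two-sided exact permutation test over libraries, in 57 comparisons. With 4 against 4 libraries the smallest p is 0.0286, and 28 comparisons reached it, dbx1a in all 3 treatments among them, with at best an adjusted p of 0.0582 over the 57. None passed 0.05 after adjustment. The thinned shares carry no scaling factor, which bears on notum-1, where the scaled level of pax6b passed the test and its thinned share, 4.85% against 4.51% in WT, gave p = 0.571 in the exact test. For pax3a the scaled level did not pass in notum-1, and its thinned share was 4.19% (3.04% to 4.98% over libraries). In WT that share was 7.28% (5.68% to 8.61%), with p = 0.0286 in the exact test and an adjusted p of 0.0582.

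In anterior neuronal cells, where 9101 genes were tested, 37.8% of genes passed in DMH1 (18.6% higher, 19.3% lower), 37.4% in SU5402 (19% higher, 18.3% lower) and 28.5% in notum-1 (15.6% higher, 12.9% lower). Of the 8 genes, 3 rose and 1 fell in DMH1, 3 rose and 2 fell in SU5402, and 0 passed in notum-1 by edgeR. In notum-1, 5 of the 8 genes were at an unadjusted p under 0.05, DESeq2 called 0, and edgeR called 1, pax6a, with RLE size factors (0.43, adjusted p = 0.0496). The median log2 fold change of the 8 genes was 0.42 for DMH1, 0.27 for SU5402 and 0.37 for notum-1, beside 0.02 for DMH1, 0.04 for SU5402 and -0.01 for notum-1 for all genes tested.

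dbx1a fell in DMH1 and SU5402 in the anterior class too, from a higher WT level. It had 17.1, 31.0, 27.0 and 30.8 scaled CPM in DMH1, 11.5, 20.2, 22.9 and 61.6 in SU5402, 118, 81.6, 104 and 129.9 in notum-1 and 79.1, 91.1, 81.0 and 107 in WT. All DMH1 and SU5402 libraries were below WT, with SU4 nearest to it, and the notum-1 libraries overlapped WT. The fall was 3.38-fold in DMH1 (log2 -1.76, SE 0.33, adjusted p = 0.000702) and 2.75-fold in SU5402 (-1.46, SE 0.34, adjusted p = 0.00304), the second lost under common limits on cells (-1.08, adjusted p = 0.148). In notum-1 the log2 value was 0.27 (SE 0.31, adjusted p = 0.544), and -0.21 without scaling factors (adjusted p = 0.561). The thinned share of anterior cells with dbx1a was 3.13% in DMH1, 3.69% in SU5402, 7.25% in notum-1 and 10.6% in WT. The notum-1 shares, 6.43% to 8.25%, all lay below those of WT, 9.27% to 12.6%. The exact permutation test gave p = 0.0286 there, with an adjusted p of 0.0582. In notum-1 the share and the scaled level thus went opposite ways. The thinned UMIs per positive cell were 2.09 ± 0.39 in notum-1 and 1.54 ± 0.18 in WT (SD, n = 4). The share carries neither these UMIs nor a scaling factor, and the part of each in the difference was not tested.

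pax6b and olig4 rose in anterior cells about as much as in posterior ones. pax6b had 204, 197, 221 and 230.1 scaled CPM in DMH1, 143, 149.6, 176 and 158 in SU5402, 98.5, 97.4, 89.7 and 93.6 in notum-1 and 75.1, 76.3, 75.7 and 83.7 in WT. All treated libraries lay above all WT libraries. The rise was 2.74-fold in DMH1 (log2 1.45, SE 0.12, adjusted p = 3.47e-08) and 2.02-fold in SU5402 (1.02, SE 0.12, adjusted p = 2.02e-06), while the notum-1 value of 0.28 (SE 0.12) had an adjusted p of 0.0822 and was -0.20 without scaling factors. olig4 had 619.8, 604, 789.5 and 797 scaled CPM in DMH1, 622, 611, 774 and 558 in SU5402, 385, 250.5, 447 and 403 in notum-1 and 361, 298, 318 and 264 in WT. It rose 2.27-fold in DMH1 (log2 1.18, SE 0.17, adjusted p = 1.9e-05) and 2.07-fold in SU5402 (1.05, SE 0.17, adjusted p = 6.35e-05), with 0.26 in notum-1 (SE 0.17, adjusted p = 0.252). After thinning, olig4 was found in 62.0% of anterior cells in DMH1 and 57.0% in SU5402, against 35.7% in WT.

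pax6a rose in SU5402 in this class as well, with 69.1, 70.1, 75.1 and 64.4 scaled CPM there and 33.0, 40.4, 27.2 and 45.9 in WT (1.88-fold, log2 0.91, SE 0.16, adjusted p = 0.000147). The SU5402 libraries lay above those of WT. It was at 40.7 to 55.5 scaled CPM in DMH1 (0.37, SE 0.16, adjusted p = 0.0714) and 45.02 to 56.1 in notum-1 (0.41, SE 0.16, adjusted p = 0.0578). Both values are close to the threshold, and without the WT library DJ2 both passed it, at adjusted p = 0.0269 in DMH1 and 0.0256 in notum-1. The DMH1 value also passed without scaling factors (adjusted p = 0.0474) and with only the 8 libraries compared (0.0239), and the notum-1 value without WNT_DJ2 (0.0478).

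irx3a rose in anterior cells in DMH1, at 44.4, 41.9, 37.4 and 47.9 scaled CPM against 30.5, 32.7, 25.4 and 34.9 in WT (1.38-fold, log2 0.47, SE 0.16, adjusted p = 0.0245). The groups did not overlap, but the call was lost without each of DMH0 (adjusted p = 0.0519), DMH4 (0.0775), MG1 (0.0557) and DJ1 (0.0892). It had 21.7, 36.6, 25.3 and 29.8 scaled CPM in SU5402 (-0.11, SE 0.17, adjusted p = 0.654) and 37.4 to 44.7 in notum-1 (0.40, SE 0.16, adjusted p = 0.0635). olig2, low in this class, had 7.67, 10.1, 8.31 and 4.63 scaled CPM in SU5402 and 13.5, 12.8, 10.1 and 26.0 in WT. The fall in SU5402 (log2 -1.17, SE 0.37, adjusted p = 0.0174), which rests on 66 UMIs in SU5402 and 137 in WT, was lost without SU4 (adjusted p = 0.0880), without DJ2 (adjusted p = 0.125) and under common limits on cells (adjusted p = 0.195).

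pax3a had 209, 191, 183 and 188 scaled CPM in anterior cells of DMH1, above the 115, 146, 147 and 125 of WT, with a log2 fold change of 0.53 (SE 0.23, adjusted p = 0.0719). It passed without scaling factors (0.60, adjusted p = 0.0328), with only the 8 libraries compared (0.55, adjusted p = 9e-06) and after thinning the sums (0.68, adjusted p = 0.00996). In SU5402 it was at 83.1, 115, 117 and 228 scaled CPM, so that SU4 alone stood above WT (log2 0.06, SE 0.23, adjusted p = 0.857). nkx6.1 was at 14.4 to 17.8 scaled CPM in DMH1 (log2 -0.03, adjusted p = 0.924), 15.1 to 32.0 in SU5402 (0.48, adjusted p = 0.0863) and 21.6 to 25.9 in notum-1 (0.52, adjusted p = 0.0644), against 14.02 to 21.2 in WT. Without SU4 the SU5402 value of nkx6.1 was 0.71 (adjusted p = 0.00700), and without scaling factors 0.64 (adjusted p = 0.0314). Its notum-1 value passed without MG2 (0.64, adjusted p = 0.0451). For notum-1 the pax3a value was 0.33 (SE 0.23, adjusted p = 0.289) and the olig2 value 0.69 (SE 0.31, adjusted p = 0.100), with WNT_DJ2 at 43.4 scaled CPM and the other notum-1 libraries at 19.4 to 21.1. That olig2 value passed without the WT library DJ2 (1.10, adjusted p = 0.0195). In DMH1 olig2 was at 6.82 to 13.0 scaled CPM (-0.64, SE 0.33, adjusted p = 0.131).

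In dorsal neuronal cells 3 of the 9 genes passed the filter on counts, and of 8890 genes tested 37.4% passed in DMH1 (18.1% higher, 19.3% lower), 37.6% in SU5402 (19.1% higher, 18.5% lower) and 28.8% in notum-1 (15.8% higher, 13% lower). olig4, low in WT, rose in each treatment. It had 32.5, 47.0, 54.5 and 64.4 scaled CPM in DMH1, 30.0, 50.8, 63.9 and 51.9 in SU5402, 50.6, 57.6, 60.1 and 41.2 in notum-1 and 16.0, 16.9, 20.2 and 11.3 in WT. No treated library was as low as the highest WT library. The rise was 3.13-fold in DMH1 (log2 1.65, SE 0.23, adjusted p = 8.35e-06), 3.22-fold in SU5402 (1.69, SE 0.24, adjusted p = 7.28e-06) and 3.29-fold for notum-1 (1.72, SE 0.24, adjusted p = 1.96e-05). The notum-1 call was kept without scaling factors (1.23, adjusted p = 0.000217) and lost under common limits on cells (1.34, adjusted p = 0.0570). The thinned share of dorsal cells with olig4 was 6.25% in DMH1, 7.03% in SU5402, 5.79% in notum-1 and 2.12% in WT, against at most 1.61% in epidermis 1.

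pax3a, most abundant in the dorsal class, had 159, 246, 285 and 349.5 scaled CPM in notum-1 and 147, 170.3, 173 and 173 in WT. The lowest notum-1 library lay within the WT range and the others above it, with a log2 fold change of 0.65 (SE 0.24, adjusted p = 0.0447). That call was lost in most refits, with 0.16 without scaling factors (adjusted p = 0.560), without each of WNT_MG2, WNT_DJ1, WNT_DJ2 and the 4 WT libraries in turn (adjusted p = 0.0612 to 0.196), and under common limits on cells (0.55, adjusted p = 0.0859). In DMH1 pax3a was at 177 to 204 scaled CPM (0.23, SE 0.24, adjusted p = 0.466), and passed with only the 8 libraries compared (0.25, adjusted p = 0.0195). The summed level of 7 neural crest genes in these cells was 412 to 618 CPM in DMH1, 520 to 879 in SU5402, 298 to 734 in notum-1 and 608 to 894 in WT. It includes tfap2a, which was as high in epidermis 1 of WT, and the part of this sum in these results was not tested. In SU5402 pax3a had 106, 91.0, 125 and 237 scaled CPM (-0.21, SE 0.24, adjusted p = 0.507), with SU4 above WT and the other libraries below it. Without SU4 the value was -0.62 (adjusted p = 0.0117).

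irx3a was low in dorsal cells, with 18 UMIs in DMH1, 2 in SU5402, 10 in notum-1 and 44 in WT over the 4 libraries of each group. It passed the test as lower in DMH1 (log2 -1.85, SE 0.52, adjusted p = 0.00705), SU5402 (adjusted p = 0.000249) and notum-1 (-1.74, SE 0.60, adjusted p = 0.0310). With 2 UMIs the fold in SU5402 is given as a ratio of 0.0461 to WT (95% exact counting interval 0.00541 to 0.177), and in notum-1 it was 0.201 (0.0903 to 0.406). The notum-1 call was lost without WNT_DJ1 (adjusted p = 0.118), WNT_DJ2 (0.107) or MG2 (0.0635). In all 3 treatments irx3a did not pass the filter, and so was not tested, without DJ2, after thinning the sums or under common limits on cells. The same held with only the 8 libraries compared for SU5402 and notum-1. Its WT level of 6.08 CPM ranked 20 among 22 classes, below 10.5 CPM in presomitic mesoderm and 15.8 CPM in epidermis 1, and its thinned share of 1.13% lay below the 2.76% of epidermis 1. Background RNA and expression by the dorsal cells cannot be told apart at that level, so these calls are given without reading a change of the dorsal cells from them. The summed level of 8 epidermal genes in the dorsal class was 582 to 941 CPM in DMH1, 236 to 3901 in SU5402, 108 to 417 in notum-1 and 490 to 1319 in WT, and its part was not tested. Untested genes with few counts included dbx1a, with 3 UMIs in DMH1, 2 in SU5402, 17 in notum-1 and 13 in WT. Its counting ratio to WT was 0.150 in DMH1 (0.0275 to 0.547) and 0.156 in SU5402 (0.0171 to 0.689). For olig2, 7 UMIs in DMH1 and 29 in WT gave a ratio of 0.157 (0.0582 to 0.367), with 14 UMIs in SU5402 and 12 in notum-1. These intervals cover counting error only, not the spread between libraries. In WT dorsal cells dbx1a averaged 1.80 CPM, against 1.93 in presomitic mesoderm, and olig2 4.21 CPM, against 6.07 in epidermis 1. The limit on background RNA given for irx3a holds for both genes, and no change of the dorsal cells is read from their ratios. pax6b averaged 2.86 ± 0.72 scaled CPM in DMH1, 1.87 ± 1.7 in SU5402, 3.15 ± 1.8 in notum-1 and 1.84 ± 0.50 in WT. nkx6.1 averaged 1.45 ± 0.48 scaled CPM in DMH1, 3.78 ± 2.5 in SU5402, 1.76 ± 1.0 in notum-1 and 2.79 ± 0.81 in WT. pax6a had 3 to 6 UMIs in each group and pax7a had 0.

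**Figure D4:**
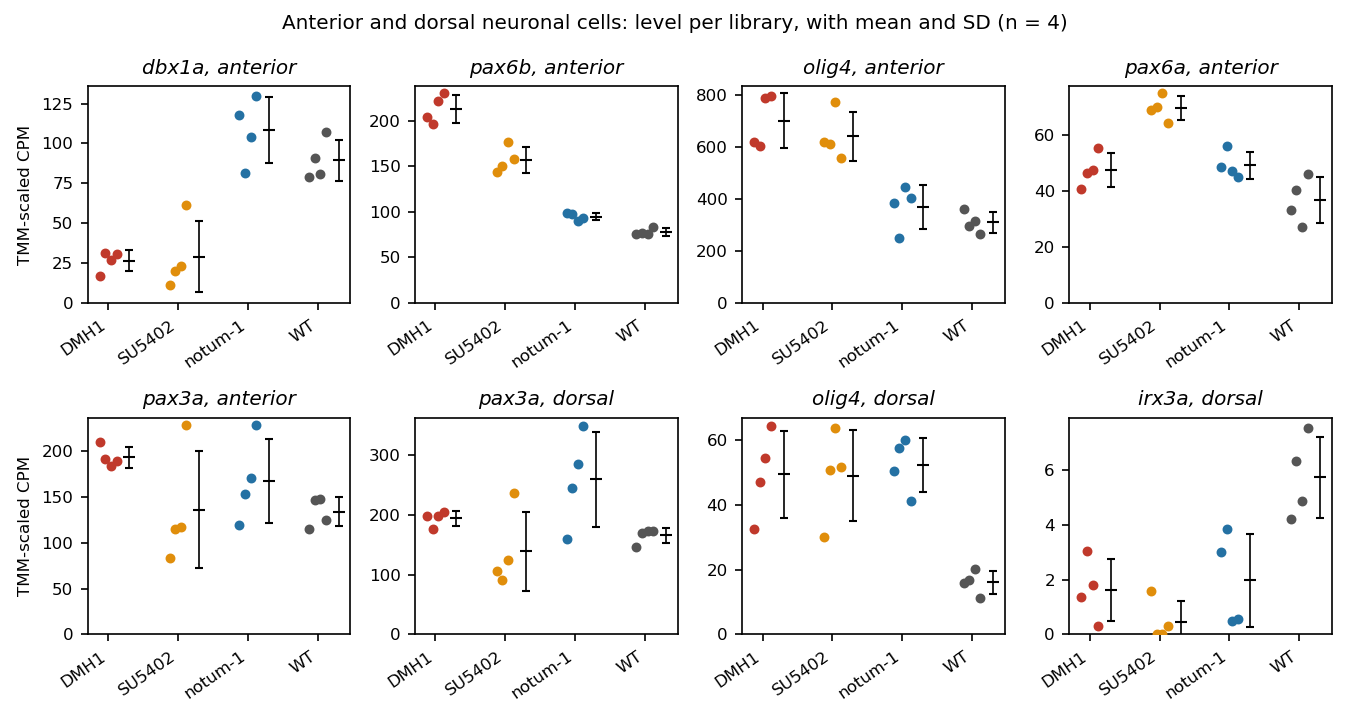
Level in TMM-scaled CPM (vertical axes, from 0) of dbx1a, pax6b, olig4, pax6a and pax3a in anterior neuronal cells and of pax3a, olig4 and irx3a in dorsal neuronal cells, in each library of DMH1, SU5402, notum-1 and WT, with the mean and SD (n = 4). pax6b in anterior cells and olig4 in dorsal cells are above every WT library in every treated library, and SU4 stands apart in pax3a, at 228 in anterior and 237 in dorsal cells.

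Whether an effect differed between classes was tested as the interaction of class and treatment, in 1 edgeR fit of all class sums with the library as a block. Few genes passed this test, 0.183% of 10363 for DMH1, 0.28% for SU5402 and 0.521% for notum-1 between anterior and posterior cells. dbx1a was among them in each, as its anterior log2 fold change exceeded the posterior one by 2.12 in DMH1 (SE 0.32, adjusted p = 0.000501), 2.01 in SU5402 (SE 0.35, adjusted p = 0.00156) and 0.99 for notum-1 (SE 0.22, adjusted p = 0.0300). On the log2 scale the fall of dbx1a in DMH1 and SU5402 was thus larger in posterior than in anterior cells. In scaled CPM the anterior mean was 26.5 in DMH1, 29.1 in SU5402 and 89.6 in WT. The posterior mean was 1.43 in DMH1, 2.47 in SU5402 and 22.0 in WT, so the anterior fall was the larger in those units. The treated posterior level overlapped that of WT presomitic mesoderm, and the part of background RNA was not tested. irx3a differed by 1.26 in DMH1 (SE 0.23, adjusted p = 0.00121) and 1.58 in SU5402 (SE 0.28, adjusted p = 0.000723). A fall was called in posterior cells in both treatments. In anterior cells the DMH1 fit called a rise (0.47, edgeR adjusted p = 0.0245) that was lost in several refits, and SU5402 had no call. In notum-1 its difference of 0.86 had an adjusted p of 0.0852. The posterior level of irx3a in WT overlapped those of presomitic mesoderm and epidermis 1, and the part of background RNA in these differences was not tested.

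Between anterior and dorsal cells 0.55% of genes passed for DMH1, 0.347% for SU5402 and 0.56% for notum-1. irx3a was the gene among the 9 that passed in each, with its dorsal effect lower by 2.38 in DMH1 (adjusted p = 0.00300), 4.19 in SU5402 (adjusted p = 0.000994) and 2.21 for notum-1 (adjusted p = 0.0229). These rest on the dorsal level that lay below that of presomitic mesoderm, and the limit given there holds for them too. For olig4 in notum-1 that difference was -1.41 (adjusted p = 0.0517). Between dorsal and posterior cells, where 1.24% passed for DMH1, 1.14% for SU5402 and 1.36% for notum-1, the genes that passed were olig4 and pax3a in notum-1. Their dorsal effect was higher than the posterior one by 1.38 for olig4 (SE 0.34, adjusted p = 0.0401) and 0.87 for pax3a (SE 0.13, adjusted p = 2.9e-05). The thinned share of WT dorsal cells with olig4 overlapped that of epidermis 1, and the part of background RNA in the olig4 differences was not tested. pax3a in notum-1 also differed between anterior and posterior cells, by 0.58 (SE 0.13, adjusted p = 0.0245). For pax6b, pax6a, olig2 and nkx6.1, 0 of 36 such differences passed by edgeR, with 5 at an unadjusted p under 0.05 and a lowest adjusted p of 0.351. Those with the dorsal class rest on few counts, as these genes did not pass the filter of that class, and their SE reached 1.26. The count of 0 thus does not show that the effects were alike in dorsal cells. For pax6b in DMH1 the anterior and posterior effects differed by -0.01 (SE 0.15).

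**Figure D5:**
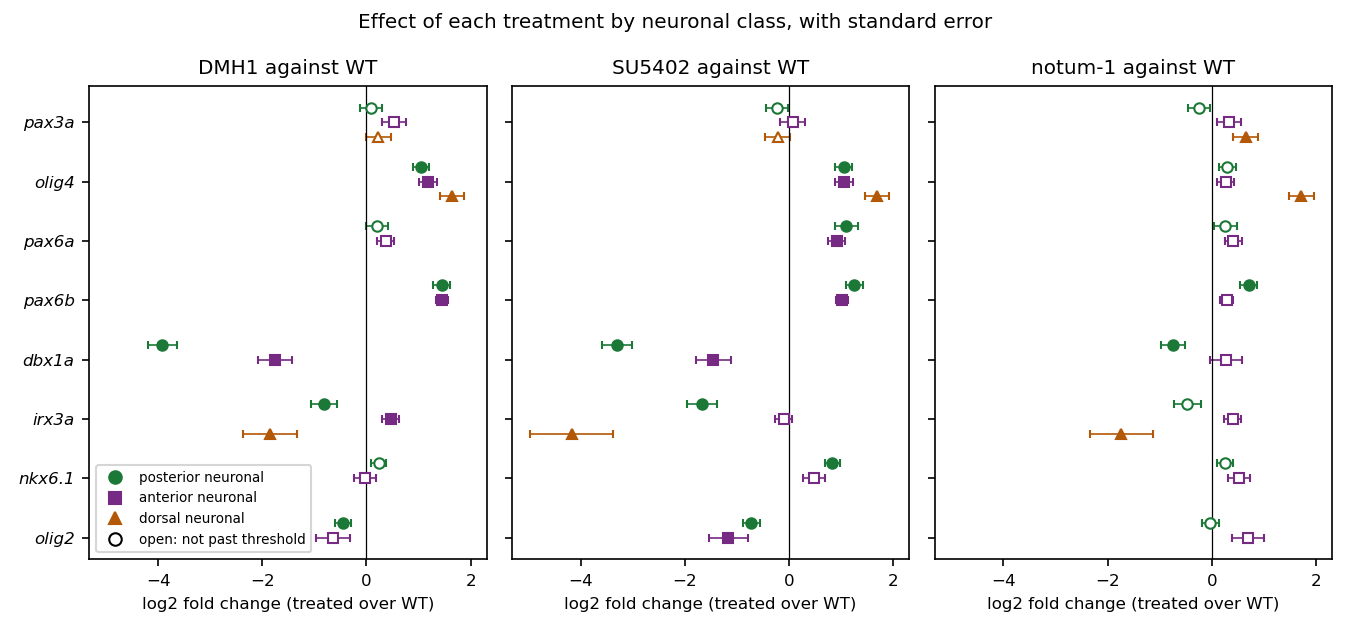
Log2 fold change against WT (horizontal axis, treated over WT) with its standard error, for the genes tested in posterior, anterior and dorsal neuronal cells, in 1 panel per treatment. Filled symbols passed an adjusted p of 0.05. The dbx1a points of DMH1 lie at -3.92 in posterior and -1.76 in anterior cells, and the olig4 points of the dorsal class lie between 1.65 and 1.72 in all 3 panels.

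Summed over all cells of a library, the members can be compared without the class names, although fewer cells of a type and less RNA per cell cannot be told apart in such sums. Of the 8 genes tested, 2 rose and 2 fell in DMH1, 4 rose and 2 fell in SU5402, and 3 rose in notum-1. Of 16399 genes in all, 42.4% passed in DMH1 (22.1% higher, 20.3% lower), 42.6% in SU5402 (23% higher, 19.6% lower) and 38% in notum-1 (20.9% higher, 17.1% lower). dbx1a averaged 1.76 ± 0.53 scaled CPM in DMH1, 2.37 ± 1.5 in SU5402, 11.7 ± 0.54 in notum-1 and 8.68 ± 1.2 in WT (SD, n = 4). It fell in DMH1 (log2 -2.30, adjusted p = 3.43e-05) and SU5402 (-1.83, adjusted p = 0.000195), the second lost under common limits on cells (-1.16, adjusted p = 0.0876). In notum-1 its value was 0.43 (adjusted p = 0.254). pax6b rose in all 3 treatments, by 1.15 for DMH1, 0.90 for SU5402 and 0.65 for notum-1 on the log2 scale, and olig4 by 0.92 for DMH1, 0.95 for SU5402 and 0.55 for notum-1, with adjusted p of at most 0.00355. Without scaling factors the notum-1 values were 0.25 for pax6b (adjusted p = 0.207) and 0.15 for olig4 (adjusted p = 0.326), and under common limits on cells pax6b was at 0.56 (adjusted p = 0.0819).

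nkx6.1 rose over all cells in SU5402 (log2 0.83, adjusted p = 0.00033) and also in notum-1 (0.56, adjusted p = 0.00775), where it was 0.17 without scaling factors (adjusted p = 0.420), 0.47 after thinning the sums (adjusted p = 0.0594) and 0.44 under common limits on cells (adjusted p = 0.148). Its DMH1 value was 0.04 (adjusted p = 0.832). pax6a rose in SU5402 (0.84, adjusted p = 0.00384), with 0.02 in DMH1 (adjusted p = 0.939) and 0.53 for notum-1 (adjusted p = 0.0521), the last passing without WNT_DJ2, MG2 or DJ2 (adjusted p = 0.0243 to 0.0393). olig2 fell in DMH1 (-0.56, adjusted p = 0.0198) and SU5402 (-0.77, adjusted p = 0.00294), and under common limits on cells these were 0.50 in DMH1 (adjusted p = 0.228) and -0.20 in SU5402 (adjusted p = 0.691). The DMH1 call was also lost without DMH0, DMH3, MG2 or DJ2 (adjusted p = 0.0510 to 0.0636). In notum-1 olig2 was at 0.27 (adjusted p = 0.254). pax3a and irx3a did not pass in any treatment over all cells. pax3a was at -0.02 in DMH1 (adjusted p = 0.959), -0.19 in SU5402 (adjusted p = 0.546) and 0.56 for notum-1 (adjusted p = 0.0707). It was lower in SU5402 without SU4 (-0.59, adjusted p = 0.00495), and higher in notum-1 without WNT_MG1 (0.67, adjusted p = 0.0369) and with only the 8 libraries compared (0.53, adjusted p = 0.0264). irx3a was at -0.43 in DMH1 (adjusted p = 0.162), -0.57 in SU5402 (adjusted p = 0.0660) and -0.21 for notum-1 (adjusted p = 0.516). With only the 8 libraries compared irx3a passed in DMH1 (adjusted p = 7.91e-05) and in SU5402 (0.0273), and its SU5402 value also passed by DESeq2 (0.0452), without SU1 (-0.76, adjusted p = 0.0278) and under common limits on cells (-1.44, adjusted p = 0.00989).

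The share of all cells that fell in a neuronal class is a product of the authors' clustering, in which these genes may have taken part. Posterior neuronal cells were 10.9% in DMH1, 10.3% in SU5402, 14.2% in notum-1 and 10.1% in WT, and anterior ones were 4.62% in DMH1, 5.03% in SU5402, 6.92% in notum-1 and 5.10% in WT. Dorsal ones were 4.19% in DMH1, 4.26% in SU5402, 4.13% in notum-1 and 4.64% in WT. In two-sided exact permutation tests over libraries, notum-1 in all 3 classes and SU5402 in the dorsal class reached the smallest possible p of 0.0286, and the adjusted p over 9 comparisons was 0.0643.

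Other genes of the dorsoventral pattern were taken from lists of dorsal, intermediate and ventral genes and of the hedgehog response. Their counts in posterior cells stand beside 43.6% of all genes called for DMH1, 42.5% for SU5402 and 34.9% for notum-1, and their medians beside 0.03 for DMH1, 0.08 for SU5402 and -0.00 for notum-1 over all genes tested. Of 18 dorsal genes 14 are among the gene names used here and 6 were tested in posterior cells, where 1 rose and 1 fell in DMH1, 2 rose and 1 fell in SU5402 and 1 fell in notum-1. The median log2 fold change of the 6 was -0.23 for DMH1, 0.26 for SU5402 and -0.13 for notum-1. msx3, an Msx-family homeobox gene of the dorsal tube, fell in DMH1 in each class, to 5.01 ± 1.0 scaled CPM in posterior cells, against 22.0 ± 1.6 in WT (log2 -2.13, adjusted p = 0.000898), and its log2 fold change was -2.11 in anterior and -2.23 in dorsal cells. olig3, an Olig-family gene of dorsal progenitors, was lower in anterior cells in DMH1 (-1.71, adjusted p = 0.000169) and higher in posterior cells in SU5402 (0.76, adjusted p = 0.00154).

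Of 10 intermediate genes 9 are among the names, and 5 were tested in posterior cells, with 2 lower in DMH1, 2 lower in SU5402 and 1 higher in notum-1. The median log2 fold change of the 5 was -0.77 for DMH1, 0.01 for SU5402 and 0.00 for notum-1. Of 7 tested in anterior cells, 1 fell in DMH1, 1 fell in SU5402, and 1 rose and 1 fell in notum-1, beside 37.8% of all genes called for DMH1, 37.4% for SU5402 and 28.5% for notum-1. The gene that fell in both DMH1 and SU5402 in anterior cells was dbx1b, the duplicate of dbx1a. It was at 5.10 ± 2.5 scaled CPM in DMH1, 5.66 ± 5.6 in SU5402 and 29.2 ± 1.5 in WT (log2 -2.50, adjusted p = 0.000679 in DMH1, and -1.96, adjusted p = 0.00422 in SU5402). irx1b, an Iroquois gene, fell in DMH1 in posterior (-0.77, adjusted p = 0.00229) and dorsal cells (-1.85, adjusted p = 0.00481).

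Of 14 ventral genes 10 were tested in posterior cells, where 1 rose and 3 fell in DMH1, 2 rose and 2 fell in SU5402, and 2 rose and 2 fell in notum-1. The median of the 10 was -0.13 for DMH1, 0.22 for SU5402 and 0.14 for notum-1. shhb, which encodes a hedgehog ligand of the floor plate, was at 16.5 ± 3.3 scaled CPM in notum-1 and 2.65 ± 0.39 in WT (log2 2.64, adjusted p = 5.28e-06). nkx2.2a, a gene of the most ventral progenitors, was at 2.70 ± 0.57 in notum-1 and 0.662 ± 0.36 in WT (1.89, adjusted p = 0.00408), on 52 UMIs in notum-1 and 11 in WT. isl1, a LIM-homeobox gene of motor and sensory neurons, rose in posterior cells in SU5402 (0.97, adjusted p = 0.00155) and fell in dorsal cells in DMH1 (-2.64, adjusted p = 0.000107) and SU5402 (-1.53, adjusted p = 0.00984). foxa, a FoxA-family forkhead gene, fell in anterior cells in DMH1 (-2.63), SU5402 (-2.42) and notum-1 (-1.55), with adjusted p of at most 0.00627 and 72 UMIs in WT.

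Of the 9 hedgehog response genes, 7 were tested in posterior cells, with 3 higher and 1 lower in DMH1, 4 higher and none lower in SU5402, and 1 higher and 2 lower in notum-1. The share of all genes called there was 43.6% for DMH1, 42.5% for SU5402 and 34.9% for notum-1. The median of the 7 was 0.39 for DMH1, 0.68 for SU5402 and -0.44 for notum-1, beside 0.03 for DMH1, 0.08 for SU5402 and -0.00 for notum-1 over all genes. gli2a, a transcription factor of the pathway, and boc, a hedgehog co-receptor, rose in SU5402 in all 3 classes, gli2a by 0.77 in posterior, 0.76 in anterior and 0.93 in dorsal cells on the log2 scale and boc by 0.68 in posterior, 0.93 in anterior and 0.77 in dorsal cells. In notum-1, gli2a fell in posterior cells (-0.66, adjusted p = 0.00586). hhip, which encodes a secreted hedgehog-binding inhibitor, fell in posterior cells of DMH1 (-1.04, adjusted p = 0.00368) and those of notum-1 (-0.96, adjusted p = 0.0111). It also fell in dorsal cells of DMH1 (-1.09, adjusted p = 0.0177) and in anterior (-1.21, adjusted p = 0.0126) and dorsal cells (-1.52, adjusted p = 0.00893) of notum-1. Of 6 genes of this list tested in dorsal cells, 3 fell and 0 rose in notum-1, beside 28.8% of all genes called there.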

How the data were processed

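Single cells of zebrafish tails were profiled in 16 libraries with a droplet protocol for transcript 3′ ends, per the labels' protocols. The authors deposited unnormalized UMI counts in a matrix of 21301 genes by 130661 filtered cells, with a cell table of library, treatment, cell class and mitochondrial percent as the authors computed it. Cell Ranger and the build GRCz11 are named in the submitters' processing notes, while the versions and the annotation were not given in the sources used here. No coordinates or sequences are printed. Deposited UMI and gene numbers were recomputed, with 0 cells differing. Doublets were left as in the deposited cells, and no caller was run. By name, 4 libraries match a labelled sample and 12 match a group only. The lowest chi-square per degree of freedom of the 24 pairs of libraries within groups was 18.3, so none was merged.

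Counts were summed per library and class, over a minimum of 10 cells, and tested with edgeR 4.0.16 in R 4.3.3 (TMM factors, filterByExpr, robust quasi-likelihood fit, 4 groups, 12 residual degrees of freedom) at an adjusted p of 0.05. Differences between classes had the library as a block. Alternatives used DESeq2 1.42.0, RLE or no scaling, no filter, 8 libraries, each library left out, a replicate block, sums thinned to the smallest, and common limits on cells (mitochondrial percent at most 3, at least 1500 genes). limma 3.58.1, Python 3.11.15, numpy 2.4.6, scipy 1.17.1, pandas 2.3.3 and matplotlib 3.10.9 were also used. Scripts were tested on simulated data.

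The rule names all 9 genes in every comparison, and of the other lists at most 4 genes per class and treatment, those with the smallest adjusted p. 1 gene that this rule names is not reported here. The 3 genes most like each were ranked over WT classes with at least 10 CPM in a class. The genes and lists were chosen with earlier results of these data known. The library names of WT and notum-1 share endings, whose meaning the labels do not give.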

Additional observations from a re-analysis of the deposited data

Results flagged for a closer look

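In 88 groups of 4 libraries checked for a library standing apart by Dixon's criterion, 5 had one, and chance flags about 1 in 20 groups. In posterior neuronal cells these were pax3a in notum-1, where WNT_MG1 was at 23.3 scaled CPM, and pax6b in DMH1, where DMH0 was at 55.1 scaled CPM. In anterior neuronal cells they were olig2 in notum-1, where WNT_DJ2 was at 43.4 scaled CPM, and pax6b in WT, where DJ2 was at 83.7 scaled CPM. In dorsal neuronal cells pax3a in WT was lowest in MG1, at 147 scaled CPM.

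Treatment effects that differed between neuronal classes by the interaction test (edgeR, adjusted p under 0.05) are the other results for a second look. The dbx1a effect was higher in anterior than in posterior cells by 2.12 for DMH1, 2.01 for SU5402 and 0.99 for notum-1 on the log2 scale. Its posterior level in DMH1 and SU5402 overlapped that of WT presomitic mesoderm. The irx3a effect was higher in anterior than in posterior cells by 1.26 in DMH1 and 1.58 in SU5402, with a posterior level in WT that overlapped that of presomitic mesoderm. It was higher in anterior than in dorsal cells by 2.38 for DMH1, 4.19 for SU5402 and 2.21 for notum-1, with a dorsal level in WT below that of presomitic mesoderm. The notum-1 effect on pax3a was higher than in posterior cells by 0.58 in anterior and 0.87 in dorsal cells. That on olig4 was higher in dorsal than in posterior cells by 1.38, with a thinned share of WT dorsal cells that overlapped that of epidermis 1.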

How the results depend on the processing

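Across 81 results for single genes, 43 passed the test, and 23 of these were tested and passed in every alternative, all in DMH1 or SU5402. irx3a in dorsal cells of DMH1 and SU5402 passed wherever it was tested, but was filtered out in some alternatives, so lower counts in dorsal cells include it. Of 1257 values under an alternative, 52 lost a call, 35 gained one and 2 reversed, both for olig2 in DMH1 under common limits on cells (0.25 in posterior neuronal cells and 0.50 over all cells). Values that never passed changed sign in 47 cases and are not counted as reversed, 14 of them without scaling factors. Common limits ended 14 calls. They kept 1627 of 6173 neuronal cells in DMH1, 738 of 6441 in SU5402, 2995 of 7766 in notum-1 and 2180 of 6843 in WT. SU1 was left out of these refits in posterior and anterior cells, and SU1 and SU2 in dorsal cells. The SU5402 calls lost there thus rest on fewer libraries as well as fewer cells. The cause of the other changes was not tested.

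Thinning the sums to the smallest changed the numbers of genes called in posterior cells to 2717 in DMH1 and 1827 in notum-1, in anterior cells to 1904 for DMH1, 2146 for SU5402 and 1182 for notum-1, and in dorsal cells to 1624 for DMH1, 1965 for SU5402 and 1170 for notum-1. Of the 9 genes it then called 3 in posterior cells of DMH1 and 1 in dorsal cells of each treatment. Under common limits on cells the genes called were 2721 in SU5402 and 2115 in notum-1 in posterior cells, 2248 for DMH1, 1815 for SU5402 and 1432 for notum-1 in anterior cells, 2125 for DMH1, 1606 for SU5402 and 1407 for notum-1 in dorsal cells, and 3825 in notum-1 over all cells. Of the 9, common limits called 1 in posterior and 0 in dorsal cells of notum-1, 3 in anterior cells of SU5402, 1 in dorsal cells of DMH1 and SU5402 each, and 1 over all cells of notum-1. The shares of cells then differed from WT by 2.62 percentage points for anterior cells in DMH1, 5.68 in SU5402 and 0.0355 for dorsal cells in DMH1. Among neuronal and NMP cells the posterior share of SU5402 differed by -1.29.

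Without scaling factors the genes called in notum-1 were 4078 in anterior and 4060 in dorsal cells, 4 of the 9 genes passed in posterior cells and 0 over all cells, and 67 genes had a SU5402 effect that differed between anterior and dorsal cells. The median of all genes moved to 0.13 for DMH1, 0.27 for SU5402 and -0.44 for notum-1 in posterior cells, with 685 genes higher and 4542 lower in notum-1, against 2023 and 1767 with scaling. That split was 444 and 3634 in anterior and 434 and 3626 in dorsal cells of notum-1 and 1418 and 6113 over all cells. It was 3401 higher and 1449 lower in SU5402 and 2916 and 1810 in DMH1 in posterior cells, 2289 and 1188 in SU5402 in anterior cells, and 5269 and 2006 in SU5402 and 4655 and 2323 in DMH1 over all cells.

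RLE factors called 1 of the 9 in anterior cells of notum-1. No filter called 4 in dorsal cells of DMH1. Fitting only the 8 libraries compared called 1 in dorsal cells of SU5402 and 5 over all cells of notum-1. Leaving out each library in turn gave 1 to 2 of the 9 in posterior and 0 to 2 in anterior cells of notum-1, and in dorsal cells 1 to 2 in DMH1 and 1 to 3 in SU5402 and in notum-1. With a replicate block by library-name ending, 3357 genes passed in posterior and 2413 in anterior cells of notum-1, 2216 in dorsal cells and 5601 over all cells, and 1 of the 9 in anterior cells, olig2 (0.73, adjusted p = 0.0134). pax3a also passed over all cells (0.51, adjusted p = 0.0306). Same-ending libraries correlated by 0.0125 to 0.13 in posterior, 0.00147 to 0.113 in anterior and -0.0772 to 0.0947 in dorsal cells and by -0.107 to 0.280 over all cells, never over 0.1 in every pair, so the endings are not taken to pair the samples. Leaving out SU1 and SU2, an alternative chosen after seeing the data, changed 1 call, irx3a over all cells in SU5402 (-0.95, adjusted p = 0.0130). In dorsal cells depth limits the tests, as 6 of the 9 genes did not pass the filter.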

Other observations

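irx3a was also counted outside the neural classes, in classes chosen because its WT level was highest there, and the values are given without a test. In epidermis 3, a class of the surface ectoderm, it averaged 71.7 ± 6.4 CPM in DMH1, 42.0 ± 22 in SU5402, 22.5 ± 5.7 in notum-1 and 83.6 ± 17 in WT (SD, n = 4). In epidermis 4 it averaged 48.9 ± 12 CPM in DMH1, 26.8 ± 8.8 in SU5402, 16.0 ± 6.3 in notum-1 and 62.8 ± 8.6 in WT. Every SU5402 and every notum-1 library lay below every WT library in both classes. In anterior notochord, its highest class, it averaged 218 ± 27 CPM in DMH1, 266 ± 62 in SU5402, 208 ± 38 in notum-1 and 252 ± 15 in WT, with ranges that overlapped. In posterior notochord irx3a averaged 27.3 ± 4.3 CPM in DMH1, 61.4 ± 29 in SU5402, 28.7 ± 15 in notum-1 and 59.7 ± 16 in WT. Every DMH1 and every notum-1 library lay below every WT library there, while SU5402 overlapped WT. In that class nkx6.1 averaged 40.4 ± 4.8 CPM in DMH1, 59.0 ± 11 in SU5402, 33.1 ± 2.2 in notum-1 and 24.9 ± 13 in WT. Every SU5402 library lay above every WT library, while DMH1 and notum-1 overlapped WT.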
